A study of Mus musculus with 14 samples.

Results

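The 36 genes described here code for the proteins of homologous recombination and of the Fanconi anaemia pathway, and were taken by symbol from the deposited gene table. The rule itself uses no measured value, but the set was chosen with earlier results of these data known. All 36 were among the 77981 genes of that table, and all 36 passed the filter on low counts that left 13997 genes for testing. The counts are of the 3′ ends of messenger RNA from 14 liver tumours of mice. In all of them the tumour was driven by c-Myc and β-catenin, both of mouse, whose plasmids were brought into liver cells by hydrodynamic injection, a rapid injection of a large volume. The groups were 5 wild-type tumours (WT), 5 tumours from Cdk18 knockout mice (CDK18KO) and 4 from mice lacking Cdk18 in which, by the labels, Cdk16 was deleted as well (DKO). Cdk16 was floxed and was deleted in established tumours with Cre-ERT2, a recombinase switched on by tamoxifen. Tamoxifen was injected at 75 mg/kg on 5 days into floxed animals with Cre-ERT2 and into Cre-ERT2 controls, and tumours were taken 10 days after the last dose. The labels do not say which of the WT and CDK18KO animals carried Cre-ERT2 or were given tamoxifen. The promoter that drives Cre-ERT2, the kind of Cdk18 allele, and the animals' ages and sexes are not stated either.

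Homologous recombination repairs a double-strand break by copying an intact sister chromatid. The broken ends are trimmed to single strands, which with the help of BRCA2 pair with the intact copy, and the joined molecules are later cut or unwound. The Fanconi proteins detect DNA strands that are crosslinked to each other, attach ubiquitin to the FANCI-FANCD2 pair, and hand the damage to the same recombination machinery. Many of these genes are transcribed mainly in dividing cells, around S phase.

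The start-site sequences of these genes are shown first for some of the members on which the comparisons turn, and for 1 member that carries E2F letters. E2F factors drive S phase transcription, and CCAAT is bound by the general factor NF-Y. RefSeq promoters of GRCm38.p6 were matched for 26 of the 36 genes, in 30 windows of 250 bases before and 50 after a start site. No window was matched for Fancd2, Exo1, Rad50, Rad54b, Rbbp8, Nbn, Rad51d, Xrcc2, Top3a and Rmi2, so the shares below leave them out. The 250 bases before the start are printed on the gene's strand, with capitals for CCAAT or its complement ATTGG and, in Brca2, for an E2F match. The places are chr12:79297032-79297281 (plus strand) for Rad51b, chr11:86201194-86201443 (minus strand) for Brip1, chr12:111813880-111814129 (minus strand) for Xrcc3, chr6:126939588-126939837 (minus strand) for Rad51ap1 and chr5:150522371-150522620 (plus strand) for Brca2.
Rad51b: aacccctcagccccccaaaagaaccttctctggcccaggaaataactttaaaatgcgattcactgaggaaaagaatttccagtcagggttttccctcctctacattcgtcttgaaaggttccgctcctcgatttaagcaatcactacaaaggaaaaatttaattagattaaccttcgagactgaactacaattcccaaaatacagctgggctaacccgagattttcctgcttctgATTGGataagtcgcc
Brip1: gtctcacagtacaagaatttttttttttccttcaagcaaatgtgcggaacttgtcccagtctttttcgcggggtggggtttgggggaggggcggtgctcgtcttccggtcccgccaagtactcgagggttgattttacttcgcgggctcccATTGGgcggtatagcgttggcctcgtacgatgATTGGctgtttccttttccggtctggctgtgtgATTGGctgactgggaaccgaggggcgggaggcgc
Xrcc3: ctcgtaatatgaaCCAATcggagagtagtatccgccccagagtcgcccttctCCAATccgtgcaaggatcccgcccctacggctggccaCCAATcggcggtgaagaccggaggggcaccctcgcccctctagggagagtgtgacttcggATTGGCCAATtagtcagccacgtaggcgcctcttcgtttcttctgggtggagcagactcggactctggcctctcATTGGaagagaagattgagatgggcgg
Rad51ap1: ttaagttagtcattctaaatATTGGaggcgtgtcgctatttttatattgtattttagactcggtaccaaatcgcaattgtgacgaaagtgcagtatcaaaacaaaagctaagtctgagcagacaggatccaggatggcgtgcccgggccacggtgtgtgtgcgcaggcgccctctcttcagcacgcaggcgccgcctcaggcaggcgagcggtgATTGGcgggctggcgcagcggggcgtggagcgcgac
Brca2: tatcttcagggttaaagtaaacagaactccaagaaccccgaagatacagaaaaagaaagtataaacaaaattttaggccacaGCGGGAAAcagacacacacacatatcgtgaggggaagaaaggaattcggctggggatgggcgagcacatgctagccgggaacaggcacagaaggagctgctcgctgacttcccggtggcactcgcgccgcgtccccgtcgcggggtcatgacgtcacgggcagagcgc
The E2F letters searched were TTTCCCGC and TTTGGCGC, on both strands of the 300-base windows. They were in 5 of the 30 windows of these genes (16.7%), those of Bard1, Brca2, Fancg, Rad51c and Rmi1, against 1.56% of 32851 windows of all genes. CCAAT on either strand was in 19 of the 30 windows (63.3%, 16 genes) against 37.4% of all windows. The paired windows of Rad51b and of Rad54l overlap and hold the same CCAAT site, which is therefore counted in both windows of each gene. CACGTG, an E-box that c-Myc can bind, was in 3 windows (10.0%), those of Eme1, Rmi1 and Slx4, against 7.15%. The cell-cycle letters TTTGAA were in 3 windows (10.0% against 17.9%), the NRF1 motif in the window of Dna2 alone (3.33% against 0.971%), and CAAAGTCCA, letters of an HNF4 site, in 0 (against 0.475%). The windows of Rad51b and Xrcc3 held none of these E2F letters, Xrcc3 held several CCAAT matches, and the Rad51b sequence shown holds 1.

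The libraries held 1442417 (WT 5) to 6068209 (WT 2) counts, and 1 count was worth 0.137 to 0.771 CPM (counts scaled to a common library total with TMM factors). The 36 genes took 0.0591% (DKO 2) to 0.131% (WT 1) of a library's counts. Over all 14 libraries, a member had between 154 (Fancg) and 6227 (Rad50) counts. The least counted members were thus measured on few reads in each library, with 1 count of Mus81 in WT 5. Cdk18 stood at 4.76 ± 3.58 CPM (SD, n = 5) in WT, 1.98 ± 1.06 (n = 5) in CDK18KO and 1.90 ± 1.51 (n = 4) in DKO, and the groups overlapped. Cdk16 stood at 49.1 ± 7.32, 40.6 ± 14.3 and 30.8 ± 15.4 CPM in the same order, also with overlap. Among the DKO libraries Cdk16 was at 38.9, 18.0, 48.5 and 17.8 CPM in DKO 1 to DKO 4, so DKO 3 lay within the WT range of 40.0 to 59.2 CPM. No source used here says whether the deletions remove the counted 3′ ends, so these levels check no label. Markers of hepatocytes differed between the tumours more than the repair genes did. The summed level of 14 hepatocyte markers ran from 162 to 4226 CPM for WT, from 1441 to 16289 CPM for CDK18KO and from 1810 to 24400 CPM for DKO. Albumin was at 31.5 CPM in WT 1 and 3429 CPM in DKO 2, and Hnf4a, a defining liver factor, was at 0 in WT 1. Y-linked genes stood above 100 CPM in WT 3, WT 5 and CDK18KO 1 and at no more than 33.0 CPM elsewhere, all 4 DKO libraries included. In bulk tumours, fewer cells of a type and less RNA per cell cannot be told apart.

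Seen together, the repair genes stood lowest in DKO. Their summed level was 1284, 879, 876, 1194 and 811 CPM over WT 1 to 5, and 985, 892, 1223, 1085 and 1191 CPM over CDK18KO 1 to 5. In DKO 1 to 4 it was 643, 741, 923 and 785 CPM. The WT and CDK18KO ranges overlapped, and DKO 3 was the 1 DKO library that reached into the WT range. With Rad51b left out, the sum over 35 genes was 582 to 909 CPM in DKO, 786 to 1207 in CDK18KO and 806 to 1279 in WT. Of the 36 genes, 29 had their lowest group mean in DKO, 7 in WT and 0 in CDK18KO. The order WT, CDK18KO, DKO from high to low held for 19 genes, and the order CDK18KO, WT, DKO for 10. Rad51b, Fancf, Fancl and Rmi1 had the reverse order, with DKO highest and WT lowest. Rad51d, Dna2 and Fancg were highest in CDK18KO and lowest in WT. The heat map of the 36 genes shows these rows library by library.

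**Figure D1:**
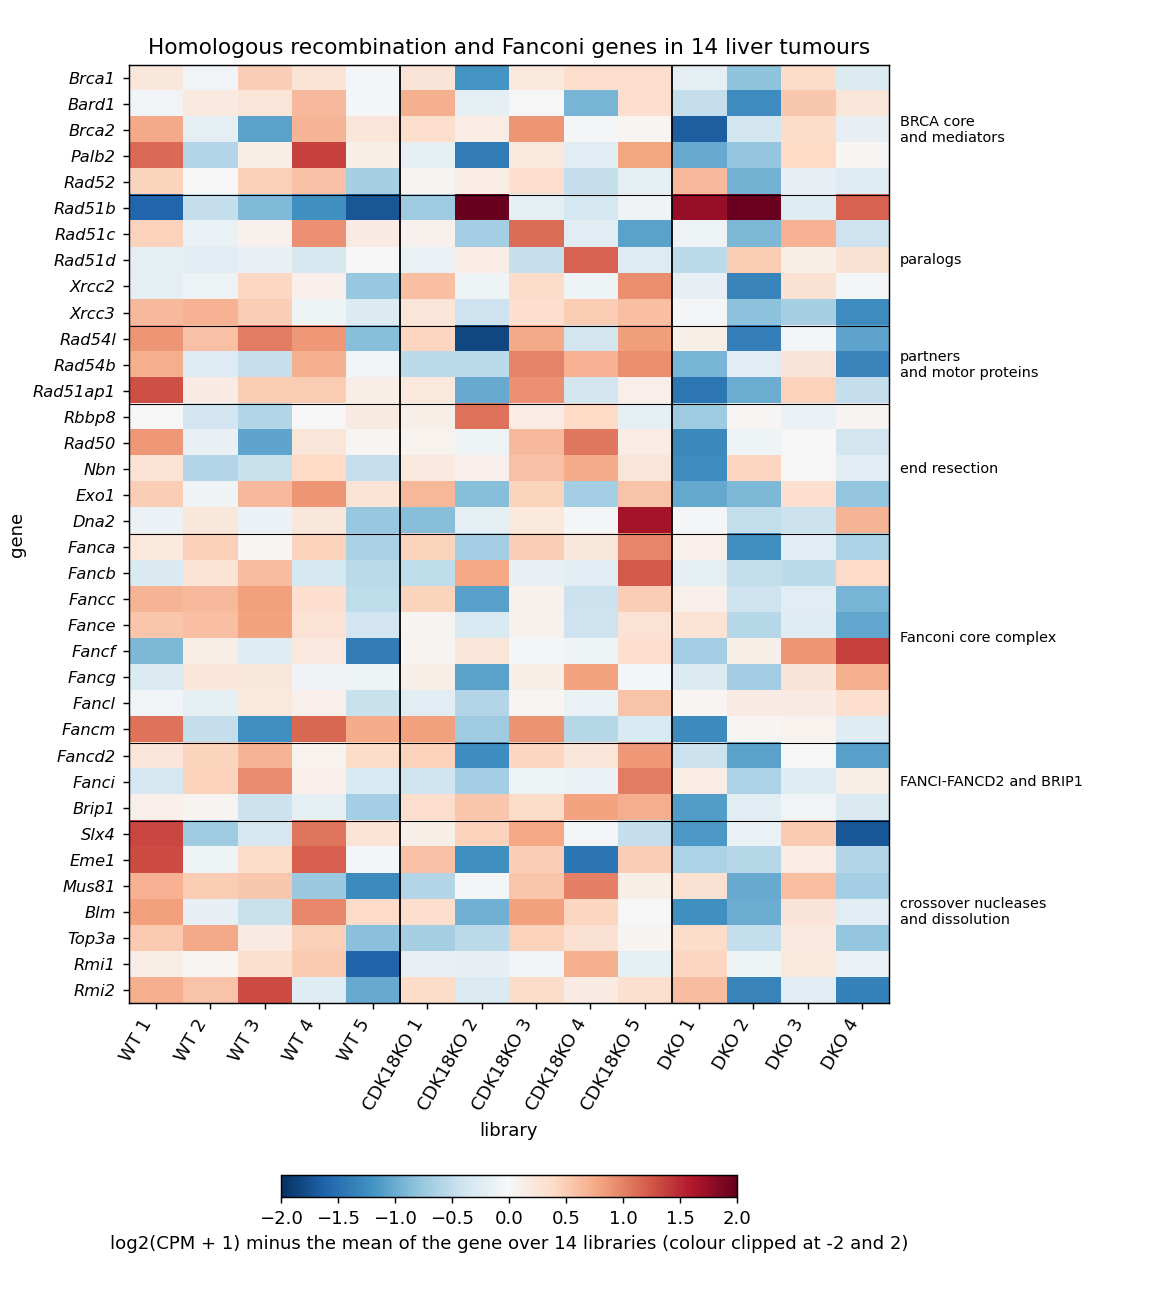
Level of each of the 36 genes (rows, by role) in each of the 14 libraries (columns), as log2(CPM + 1) minus the gene's mean over the libraries, with colour from blue (below) to red (above). Rad51b is the row that is red in CDK18KO 2, DKO 1, DKO 2 and DKO 4, where Rad54l, Rad51ap1 and Exo1 are mostly blue.

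The first comparison, CDK18KO against WT, concerns tumours that lack Cdk18 alone. The members split evenly: 17 had a higher and 19 a lower level in CDK18KO (52.8% lower, against 50.6% of all genes), with a median log2 fold change of -0.08 against -0.01 over all genes tested. By the quasi-likelihood test of edgeR, 0 of the 36 passed an adjusted p of 0.05, where 0.00714% of all genes did. At an unadjusted p under 0.05, 2 were higher (5.56%, against 11.6% of all genes) and 0 lower (against 5.31%). The 2 were Rad51b and Brip1, which DESeq2 also called higher at an adjusted p of 0.0393 and 0.0473, 2 of 36 where it called 4.32% of all genes higher and 1.82% lower. Groups did not overlap for 1 member, Brip1, which was higher in CDK18KO, where 1.1% of all genes were, and for 0 lower, where 1.6% of all genes were. Without CDK18KO 2, 1 of the 2 was left at an unadjusted p under 0.05, and the median of the 36 was 0.08. It was 0.02 without WT 3.

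Comparing DKO with WT sets the loss of both kinases against neither, together with any difference in Cre-ERT2 or tamoxifen, which the labels do not give for WT. Here 29 of the 36 members were lower in DKO (80.6%, against 52.1% of all genes), and their median log2 fold change was -0.48 against -0.04. By the edgeR test 0 of the 36 passed the adjusted threshold, where 0.00714% of all genes did. At an unadjusted p under 0.05, 5 members were lower (13.9%, against 5.22% of all genes) and 1 was higher (2.78%, against 13.7%). The 5 were Xrcc3, Fancd2, Exo1, Fance and Rad51ap1, and the 1 higher was Rad51b. DESeq2 called 1 member, Rad51b, higher (6.28% of all genes) and 0 lower (1.13%). The groups did not overlap for Fancd2, which was lower (2.46% of all genes were), and for Rad51b, which was higher (3.04% of all genes were). The count of 5 rested on few libraries. It was 0 without DKO 2 and 0 without DKO 4, 2 without WT 3, 3 without WT 1 and 3 without WT 4, 2 without the 3 libraries with high Y-linked expression, 8 without WT 5, and 9 without CDK18KO 2, which enters through the shared estimate of spread and the gene filter.

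Comparing DKO with CDK18KO bears on the loss of Cdk16 in tumours without Cdk18. The labels do not say whether the CDK18KO animals had Cre-ERT2 or tamoxifen, so effects of these cannot be told apart from that loss. Cdk16 itself differed by -0.39 on the log2 scale (SE 0.34, edgeR adjusted p = 0.993). Of the 36 members, 32 were lower in DKO (88.9%, against 51.8% of all genes), with a median log2 fold change of -0.47 against -0.02. The exceptions were Rad51b, Fancf, Fancl and Rmi1. By edgeR 0 of 36 passed the adjusted threshold, as did 0% of all genes, and DESeq2 called 0 members where it called 0.574% of all genes higher and 0.0287% lower. At an unadjusted p under 0.05, 3 members were lower (8.33%, against 1.86% of all genes), namely Brip1, Xrcc3 and Fancd2, and 0 were higher (against 3.94%). Brip1 was the 1 member whose groups did not overlap, lower in DKO, where 0.722% of all genes were. The count of 3 became 7 without CDK18KO 2, 8 without DKO 3 and 1 without DKO 4. The 3 comparisons share their libraries in pairs, so their values are given side by side and are not independent of each other. The plot of fold changes shows all 36 genes in each comparison.

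**Figure D2:**
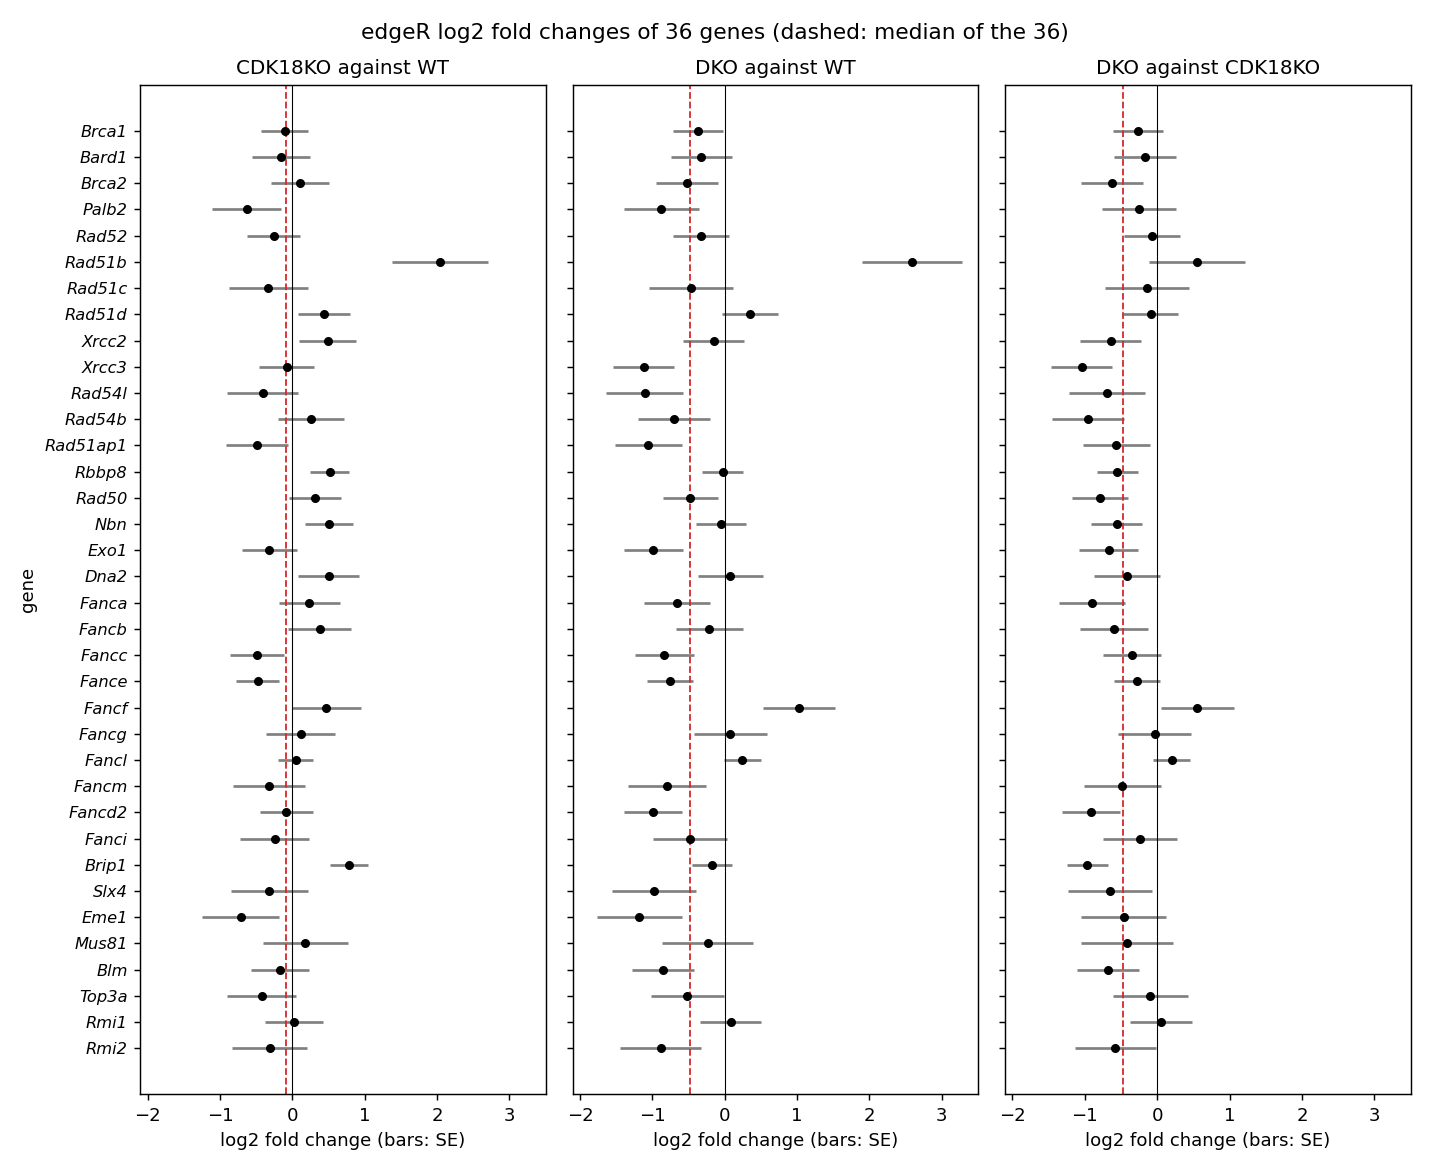
edgeR log2 fold change of each of the 36 genes (points) with its standard error (bars), in 1 panel per comparison, with 0 as a solid line and the median of the 36 as a dashed line. The points centre near 0 for CDK18KO against WT and lie mostly left of 0 in both DKO panels, with Rad51b far to the right against WT.

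The BRCA proteins and mediators prepare the trimmed ends for pairing: Brca1 and Bard1 form a ubiquitin ligase, Palb2 links Brca1 to Brca2, and Rad52 anneals strands. None of these 5 genes had an unadjusted p under 0.05 in any comparison. Their median log2 fold change was -0.15 in CDK18KO against WT, -0.37 in DKO against WT and -0.25 in DKO against CDK18KO, and 4, 5 and 5 of the 5 were lower. Palb2 differed most, at 26.4 ± 14.7 CPM in WT, 17.1 ± 8.88 in CDK18KO and 14.4 ± 6.84 in DKO, which is -0.88 on the log2 scale in DKO against WT (SE 0.52, edgeR adjusted p = 0.369). Brca1 stood at 28.3 ± 4.69, 26.2 ± 9.09 and 21.8 ± 7.68 CPM, and 4 of the 5 CDK18KO libraries lay between 28.6 and 31.5 CPM with CDK18KO 2 at 10.1 CPM. Brca2 stood at 51.9 ± 23.1, 55.6 ± 15.9 and 36.1 ± 18.0 CPM, with its lowest value, 13.4 CPM, in DKO 1. Bard1 ran from 5.07 CPM in DKO 2 to 22.7 CPM in CDK18KO 1, and Rad52 from 6.20 CPM in DKO 2 to 20.6 CPM in DKO 1. All 5 genes overlapped between the groups.

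The next role holds 5 related genes, whose proteins form small complexes that aid strand pairing: Rad51b, Rad51c, Rad51d and Xrcc2 in the one, Rad51c with Xrcc3 in the other. Within this family the extremes of the whole set lay side by side, with Rad51b highest in DKO and Xrcc3 among the lowest. Rad51b CPM was 5.19, 12.4, 9.02, 6.93 and 4.63 over WT 1 to 5, then 10.3, 106, 15.2, 13.5 and 16.7 over CDK18KO 1 to 5. In DKO 1 to 4 it was 61.1, 71.6, 14.6 and 41.1 CPM. Every DKO library was above every WT library, DKO 3 only just, and CDK18KO 2 was above all others. The group means were 7.63 ± 3.15 (n = 5), 32.3 ± 41.2 (n = 5) and 47.1 ± 25.1 CPM (n = 4). On the log2 scale DKO differed from WT by 2.59 (SE 0.70, edgeR adjusted p = 0.146, DESeq2 adjusted p = 0.0135), with adjusted p from 0.0135 to 0.464 over 25 alternatives. CDK18KO differed from WT by 2.04 (SE 0.66, edgeR adjusted p = 0.170, and 0.0393 to 0.552 over the alternatives), and by 0.81 without CDK18KO 2. DKO differed from CDK18KO by 0.55 (SE 0.67, edgeR adjusted p = 0.993), and by 1.75 without CDK18KO 2. Rad51b spans 517.4 kb at chr12:79297282-79814690 of GRCm38 and overlaps no other annotated gene. The 4 libraries highest in Rad51b were among the 5 highest in hepatocyte markers. The 14 markers summed to 16289 CPM in CDK18KO 2 and to 12156, 24400 and 7193 CPM in DKO 1, 2 and 4, but to 1810 CPM in DKO 3. CDK18KO 4 and CDK18KO 5 had 8545 and 6430 CPM of the markers, with Rad51b at 13.5 and 16.7 CPM. The part of these cells or this programme in the Rad51b difference was not tested.

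Xrcc3, at chr12:111803192-111813873, was lower in the DKO libraries than in most others. Its CPM was 11.1, 11.5, 9.90, 6.30 and 5.40 over WT 1 to 5, 8.08, 4.79, 8.70, 9.91 and 10.7 over CDK18KO 1 to 5 and 6.57, 3.38, 3.88 and 2.22 over DKO 1 to 4. DKO 1 lay within the WT range and the other 3 lay below both groups. In DKO, Xrcc3 differed by -1.12 on the log2 scale from WT (SE 0.42, edgeR adjusted p = 0.171) and by -1.04 from CDK18KO (SE 0.42, edgeR adjusted p = 0.744). Its DKO counts summed to 45, so each value rests on few reads. Exons of Xrcc3 overlap those of Klc1 on the opposite strand, which was at 30.8 to 139 CPM. Klc1 differed by -0.14 (SE 0.43, edgeR adjusted p = 0.874) in DKO against WT. The other 3 genes of this role overlapped between all groups: Rad51c, Rad51d and Xrcc2 had log2 fold changes of -0.47, 0.35 and -0.15 in DKO against WT. Rad51c ran from 1.39 CPM in CDK18KO 5 to 9.94 CPM in CDK18KO 3, and Xrcc2 from 2.82 CPM in DKO 2 to 17.1 CPM in CDK18KO 5. Rad51d reached 29.4 CPM in CDK18KO 4 and 8.29 to 18.0 CPM in every other library.

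The motor proteins Rad54l and Rad54b move along DNA to help strands pair, and Rad51ap1 aids that step. Their median log2 fold change was -1.06 in DKO against WT, the lowest of the 7 roles, and -0.69 in DKO against CDK18KO, with all 3 lower in both. Rad51ap1 CPM was 66.7, 30.1, 38.4, 38.4 and 29.3 over WT 1 to 5, 31.1, 12.8, 50.9, 20.5 and 28.7 over CDK18KO 1 to 5 and 9.14, 13.0, 36.9 and 18.9 over DKO 1 to 4. Only DKO 3 of the DKO libraries reached the WT range. Rad51ap1 differed from WT by -1.06 in DKO (SE 0.46, edgeR adjusted p = 0.236), and -1.59 without DKO 3. Rad54l was at 82.0, 66.5, 90.5, 80.7 and 23.9 CPM over WT 1 to 5, so WT 5 stood far below the other WT tumours. In CDK18KO 1 to 5 it was 59.3, 11.7, 74.8, 33.7 and 79.2 CPM, and in DKO 1 to 4 it was 47.7, 16.3, 42.7 and 20.6 CPM. Rad54l differed by -1.10 in DKO against WT (SE 0.53, edgeR adjusted p = 0.276). Rad54b CPM was 19.3, 9.20, 7.86, 19.2 and 10.8 in WT, 7.45, 7.45, 23.3, 18.8 and 22.2 in CDK18KO, and 5.43, 9.58, 13.6 and 3.89 in DKO, in replicate order. CDK18KO 1 and CDK18KO 2 lay within the DKO range and the other CDK18KO libraries above it. Rad54b differed by -0.96 in DKO against CDK18KO (SE 0.50, edgeR adjusted p = 0.920), and it shares exons on the same strand with Fsbp, so reads of these genes cannot be told apart where they overlap.

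End resection trims the break. Rbbp8, also called CtIP, starts it with the Mre11-Rad50-Nbn complex, and Exo1 and Dna2 extend it. In this role CDK18KO stood above WT in 4 of 5 genes, with a median log2 fold change of 0.50, while DKO stood below CDK18KO in all 5, with a median of -0.56. In DKO against WT the median was -0.05, and Exo1 was the 1 gene of this role with an unadjusted p under 0.05. Rbbp8 CPM was 85.7, 64.7, 56.5, 84.8 and 96.4 in WT, 92.6, 181, 94.7, 113 and 74.1 in CDK18KO, and 51.7, 86.2, 77.7 and 88.4 in DKO. CDK18KO 2 was again the highest library. Rbbp8 differed by 0.52 in CDK18KO against WT (SE 0.27, edgeR adjusted p = 0.349), and 0.28 without CDK18KO 2. Nbn CPM was 39.3, 21.0, 23.3, 42.5 and 23.1 in WT, 37.0, 34.6, 48.4, 54.2 and 38.0 in CDK18KO, and 12.9, 43.4, 32.4 and 27.2 in DKO. It differed by 0.51 in CDK18KO against WT (SE 0.33, edgeR adjusted p = 0.453), with WT 1 and WT 4 inside the CDK18KO range.

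Rad50, the ATPase of the Mre11-Rad50-Nbn complex, had the most counts of the 36 genes. Its CPM was 255, 126, 66.7, 166 and 141 in WT, 146, 130, 218, 290 and 154 in CDK18KO, and 56.6, 131, 140 and 107 in DKO. DKO 1 was lowest, and the other 3 DKO libraries lay among the WT values. Rad50 differed by -0.79 in DKO against CDK18KO (SE 0.38, edgeR adjusted p = 0.895) and by -0.47 in DKO against WT (SE 0.38, edgeR adjusted p = 0.512). Exo1, a nuclease that extends the trimmed strand, went with the lower members in DKO. Its CPM was 46.0, 30.9, 51.5, 60.5 and 39.3 in WT, 51.9, 17.5, 44.7, 19.8 and 48.7 in CDK18KO, and 15.4, 16.9, 41.1 and 18.3 in DKO. In DKO, 3 libraries lay below every WT library and DKO 3 among them. Exo1 differed from WT by -0.99 in DKO (SE 0.41, edgeR adjusted p = 0.211), and by -1.45 without DKO 3. Dna2, a nuclease and helicase, was at 169 CPM in CDK18KO 5 and at 28.9 to 85.0 CPM in the other 13 libraries.

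The Fanconi core complex is the ubiquitin ligase of the pathway, with Fancl as its catalytic subunit and Fancm as the DNA translocase that anchors it. Its 8 genes did not go one way in DKO: 5 were lower than in WT, and Fancf, Fancl and Fancg were not, with a median log2 fold change of -0.44. Fance, which bridges the complex to Fancd2, was at 59.0, 60.4, 70.4, 48.8 and 30.1 CPM in WT, 41.3, 31.9, 42.2, 29.4 and 48.7 in CDK18KO, and 48.3, 26.5, 33.3 and 18.9 in DKO. Both knockout groups overlapped WT, whose lowest library was WT 5. The log2 fold change was -0.76 in DKO against WT (SE 0.32, edgeR adjusted p = 0.216) and -0.48 in CDK18KO against WT (SE 0.30, edgeR adjusted p = 0.432). Fancc differed by -0.83 in DKO against WT (SE 0.40, edgeR adjusted p = 0.279) and Fancm by -0.80 (SE 0.53, edgeR adjusted p = 0.433), and Fancm ran from 12.6 CPM in DKO 1 to 71.5 CPM in WT 4. Fancb and Fancg were on few counts, at 5.40 to 20.9 and 1.06 to 6.61 CPM. Fanca CPM was 7.79, 9.62, 6.69, 9.45 and 3.86 in WT, 9.32, 3.72, 9.63, 7.93 and 13.9 in CDK18KO, and 7.14, 2.25, 5.50 and 3.89 in DKO. Fanca differed by -0.90 in DKO against CDK18KO (SE 0.46, edgeR adjusted p = 0.911), with all 3 groups overlapping.

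Fancf, a small adaptor subunit, went against the rest. It was at 2.60, 6.32, 4.66, 6.62 and 1.54 CPM in WT, 5.90, 6.91, 5.59, 5.28 and 7.41 in CDK18KO, and 3.14, 6.20, 11.3 and 16.1 in DKO. DKO 3 and DKO 4 were above all other libraries, and DKO 1 and DKO 2 lay within the WT range. The log2 fold change was 1.03 in DKO against WT (SE 0.50, edgeR adjusted p = 0.283), and 0.59 without DKO 4. In DKO against CDK18KO it was 0.56 (SE 0.50, edgeR adjusted p = 0.993), and 0.14 without DKO 4. Counts of Fancf were 2 to 46 per library. Fancf lies at chr7:51860577-51862267 with its exons overlapping those of Gas2 on the opposite strand. Gas2, which codes for an actin-binding protein, differed by 1.05 in DKO against WT (SE 0.43, edgeR adjusted p = 0.200). Gas2 CPM was 7.42, 8.24, 5.24, 14.8 and 13.1 over WT 1 to 5. Over CDK18KO 1 to 5 it was 17.4, 28.7, 10.6, 27.4 and 8.34, and over DKO 1 to 4 it was 19.7, 24.2, 22.7 and 13.9. The library kit keeps the strand, but whether the counting used it is not stated, and whether Gas2 reads enter the Fancf counts was not tested. Exons of 11 of the 36 genes overlap those of a protein-coding gene, 1 of them (Rad54b) on the same strand. Besides Xrcc3 and Fancf, the others are Rad54l, Fanca, Fancl, Fancd2, Fanci, Eme1, Mus81 and Rmi1. Rmi1 overlaps Hnrnpk, at 313 to 785 CPM, and Fancl overlaps Vrk2, at 20.4 to 91.1 CPM. Whether reads of such neighbours enter the counts was not tested. Fancl was the steadiest of the 36 genes, with a coefficient of variation of 21.2% over the 14 libraries against 111% for Rad51b. Its CPM was 43.0, 38.7, 51.5, 47.6 and 32.4 in WT, 38.5, 29.2, 46.0, 40.3 and 66.3 in CDK18KO, and 45.7, 50.1, 49.8 and 56.7 in DKO. It differed by 0.24 in DKO against WT (SE 0.26, edgeR adjusted p = 0.619) and by 0.20 in DKO against CDK18KO (SE 0.26, edgeR adjusted p = 0.993), with overlap in both. The plot of members by library shows 8 of the named genes.

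**Figure D3:**
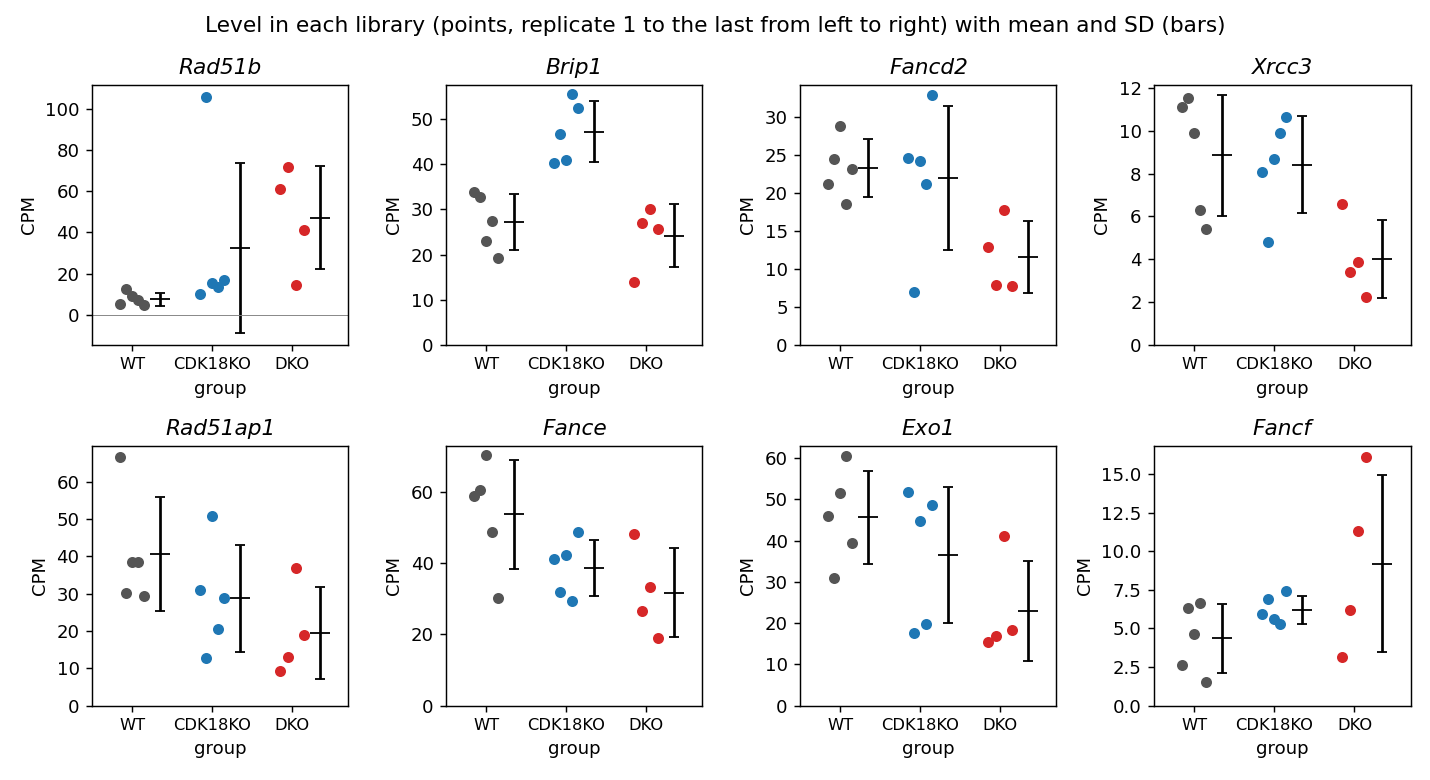
CPM of 8 named members in each library (points) by group, with the group mean and SD (bars) on a linear axis. Brip1 is highest in all 5 CDK18KO libraries, Rad51b is high in CDK18KO 2 and in 3 of the 4 DKO libraries, and most DKO points of Fancd2, Xrcc3, Exo1 and Rad51ap1 lie at the bottom of their panels.

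Downstream of the core complex, Fancd2 and Fanci carry the ubiquitin mark, and Brip1, also called FANCJ, is a helicase that binds Brca1. The 3 genes were lower in DKO than in both other groups, with medians of -0.48 against WT and -0.91 against CDK18KO. Brip1 separated CDK18KO from the rest. Its CPM was 33.7, 32.8, 23.0, 27.4 and 19.3 over WT 1 to 5, 40.4, 46.8, 41.0, 55.5 and 52.4 over CDK18KO 1 to 5 and 14.0, 27.0, 30.1 and 25.6 over DKO 1 to 4. Every CDK18KO library was above every WT and every DKO library, while WT and DKO overlapped. The means were 27.3 ± 6.22 (n = 5), 47.2 ± 6.72 (n = 5) and 24.2 ± 7.04 CPM (n = 4). The log2 fold change was 0.79 in CDK18KO against WT (SE 0.26, edgeR adjusted p = 0.171), -0.97 in DKO against CDK18KO (SE 0.28, edgeR adjusted p = 0.432, DESeq2 adjusted p = 0.0573) and -0.18 in DKO against WT (SE 0.28, edgeR adjusted p = 0.743). Leaving out any 1 library left the first of these between 0.67 and 0.86 and the second between -1.11 and -0.78. Over the alternatives the adjusted p of the first ran from 0.0473 to 0.409 and that of the second was never below 0.0573. Brip1 lies at chr11:86058138-86201193.

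Fancd2, at chr6:113531682-113597017, was at 21.1, 24.5, 28.8, 18.6 and 23.1 CPM over WT 1 to 5, 24.5, 6.91, 24.2, 21.1 and 32.9 over CDK18KO 1 to 5 and 12.9, 7.89, 17.8 and 7.78 over DKO 1 to 4. All DKO libraries lay below all WT libraries and CDK18KO 2 lay below every other library. The means were 23.2 ± 3.83 (n = 5), 21.9 ± 9.47 (n = 5) and 11.6 ± 4.78 CPM (n = 4). Fancd2 differed by -0.99 in DKO against WT (SE 0.40, edgeR adjusted p = 0.201) and by -0.91 in DKO against CDK18KO (SE 0.40, edgeR adjusted p = 0.804). Fanci, its partner, had 4 to 43 counts per library and differed by -0.48 in DKO against WT (SE 0.51, edgeR adjusted p = 0.624).

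The last role ends the exchange of strands. Mus81 and Eme1 form a nuclease, Slx4 is a scaffold for nucleases, and Blm, Top3a, Rmi1 and Rmi2 together take the joint molecules apart without a nuclease. Of the 7 genes, 5 were lower in CDK18KO than in WT, 6 in DKO than in WT and 6 in DKO than in CDK18KO, with medians of -0.31, -0.85 and -0.46. None had an unadjusted p under 0.05. Eme1 CPM was 17.1, 5.91, 8.44, 15.8 and 6.17 in WT, 9.94, 2.13, 9.32, 1.65 and 9.27 in CDK18KO, and 3.71, 3.94, 7.12 and 3.89 in DKO. WT 1 and WT 4 were high, CDK18KO 2 and CDK18KO 4 low, and 3 of the 4 DKO libraries lay between 3.71 and 3.94 CPM. Eme1 differed by -0.72 in CDK18KO against WT (SE 0.53, edgeR adjusted p = 0.519), by -0.47 without CDK18KO 4, and by -1.18 in DKO against WT (SE 0.59, edgeR adjusted p = 0.290). Blm, the helicase, stood at 58.2 ± 23.6 CPM in WT, 51.6 ± 20.6 in CDK18KO and 32.3 ± 15.8 in DKO, a difference of -0.85 in DKO against WT (SE 0.43, edgeR adjusted p = 0.299). Rmi1 had log2 fold changes of 0.02 in CDK18KO against WT, 0.08 in DKO against WT and 0.06 in DKO against CDK18KO. Slx4 ran from 2.22 CPM in DKO 4 to 25.2 CPM in WT 1 and differed by -0.97 in DKO against WT (SE 0.58, edgeR adjusted p = 0.375). Mus81 and Top3a, at most at 7.60 and 6.73 CPM, overlapped between the groups. Rmi2, the partner of Rmi1, differed by -0.89 in DKO against WT (SE 0.57, edgeR adjusted p = 0.407).

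Most members shared a direction among the libraries, and Rad51b went against them. A principal component analysis of their log2 levels put 44.5% of the variance on a first axis. Most members loaded positively on it, with Rad54l (0.30), Rad51ap1 (0.26) and Eme1 (0.26) highest. Rad51b lay far at the other end (loading -0.44). Rad51d (-0.07), Fancf (-0.07), Rbbp8 (-0.04) and Fancb (-0.03) were also negative, but near 0. CDK18KO 2, DKO 2, DKO 4 and DKO 1 lay at the Rad51b end, with scores of -4.40, -4.20, -3.36 and -2.92, and WT 1 and WT 4 at the other, with 3.75 and 3.13. DKO 3 (0.72) lay among the WT and CDK18KO libraries. A second axis with 18.6% set Fancm (0.35), Brca2 (0.29), Slx4 (0.26) and Rad50 (0.22) against Rmi2 (-0.32) and Rad54l (-0.25). Across the 36 genes, the second loading had r = 0.471 with the length of the longest annotated transcript and r = -0.374 with its GC content, given as a description over genes measured in the same libraries. By rank (Spearman) these were 0.331 and -0.439, and the GC content of the last 500 bases had r = -0.26. The first loading had r = 0.247 with length, 0.115 with GC content and 0.102 with that of the last 500 bases. The ratio of Rad50 to Rad54l counts ran from 0.736 in WT 3 to 11.1 in CDK18KO 2. It was 8.03 in DKO 2 and 1.19 in DKO 1, so it did not follow the groups.

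Genes of the same processes outside the 36 were read from a list of 47 tested genes that includes Atm and the crosslink nucleases. Of these, 21 were lower in CDK18KO than in WT (44.7%, against 50.6% of all genes), with a median of 0.05 against -0.01. In DKO, 36 were lower than in WT (76.6%, against 52.1%), with a median of -0.32 against -0.04. Against CDK18KO, 39 were lower in DKO (83%, against 51.8%), with a median of -0.29 against -0.02. By edgeR 0 of the 47 passed the adjusted threshold. At an unadjusted p under 0.05, 2 were higher in CDK18KO than in WT (against 11.6% of all genes), 2 were lower in DKO than in WT (4.26%, against 5.22%), and 1 was lower in DKO than in CDK18KO (2.13%, against 1.86%). These counts at an unadjusted p under 0.05 were near or below the shares over all genes, while the shares lower in DKO were above them. Mms22l, which acts in the repair of stalled forks, differed by -0.84 in DKO against WT (SE 0.35, edgeR adjusted p = 0.210), and Gen1, a nuclease of joint molecules, by -0.55 (SE 0.24, edgeR adjusted p = 0.238).

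Genes of S phase and mitosis also stood lower in DKO. All 37 of them were lower in DKO than in WT (against 52.1% of all genes) and 36 were lower than in CDK18KO (97.3%, against 51.8%), with medians of -0.57 and -0.58, against 19 lower and -0.05 in CDK18KO against WT. At an unadjusted p under 0.05, 9 were lower in DKO than in WT (24.3%, against 5.22% of all genes) and 8 were lower than in CDK18KO (21.6%, against 1.86%), and 0 passed the adjusted edgeR threshold. The replication helicase subunit Mcm3 differed by -0.99 in DKO against WT (SE 0.30, edgeR adjusted p = 0.146, DESeq2 adjusted p = 0.0251). The summed level of the 37 genes was 3385 to 4925 CPM in WT, 3229 to 5385 CPM in CDK18KO and 1881 to 3988 CPM in DKO, where DKO 3 was the highest. DKO 3 was also the DKO library highest in the sum of the 35 repair genes without Rad51b. Of 18 transcription regulators tied to these genes, 14 were lower in DKO than in WT, with a median of -0.26, and the repressor E2f6 differed by -0.91 (SE 0.31, edgeR adjusted p = 0.154). The repressor E2f8 had fold changes like those of Brip1, at 0.87 in CDK18KO against WT (SE 0.31, edgeR adjusted p = 0.196) and -0.96 in DKO against CDK18KO (SE 0.34, edgeR adjusted p = 0.626). Unlike Brip1, E2f8 overlapped between the groups: CDK18KO 1, at 48.5 CPM, lay below WT 1 (50.4 CPM) and DKO 4 (62.2 CPM). E2f7, of the same list, went the other way in CDK18KO against WT, at -1.24 (SE 0.55, edgeR adjusted p = 0.273). The part of the share of dividing cells in the lower repair levels was not tested.

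**Figure D4:**
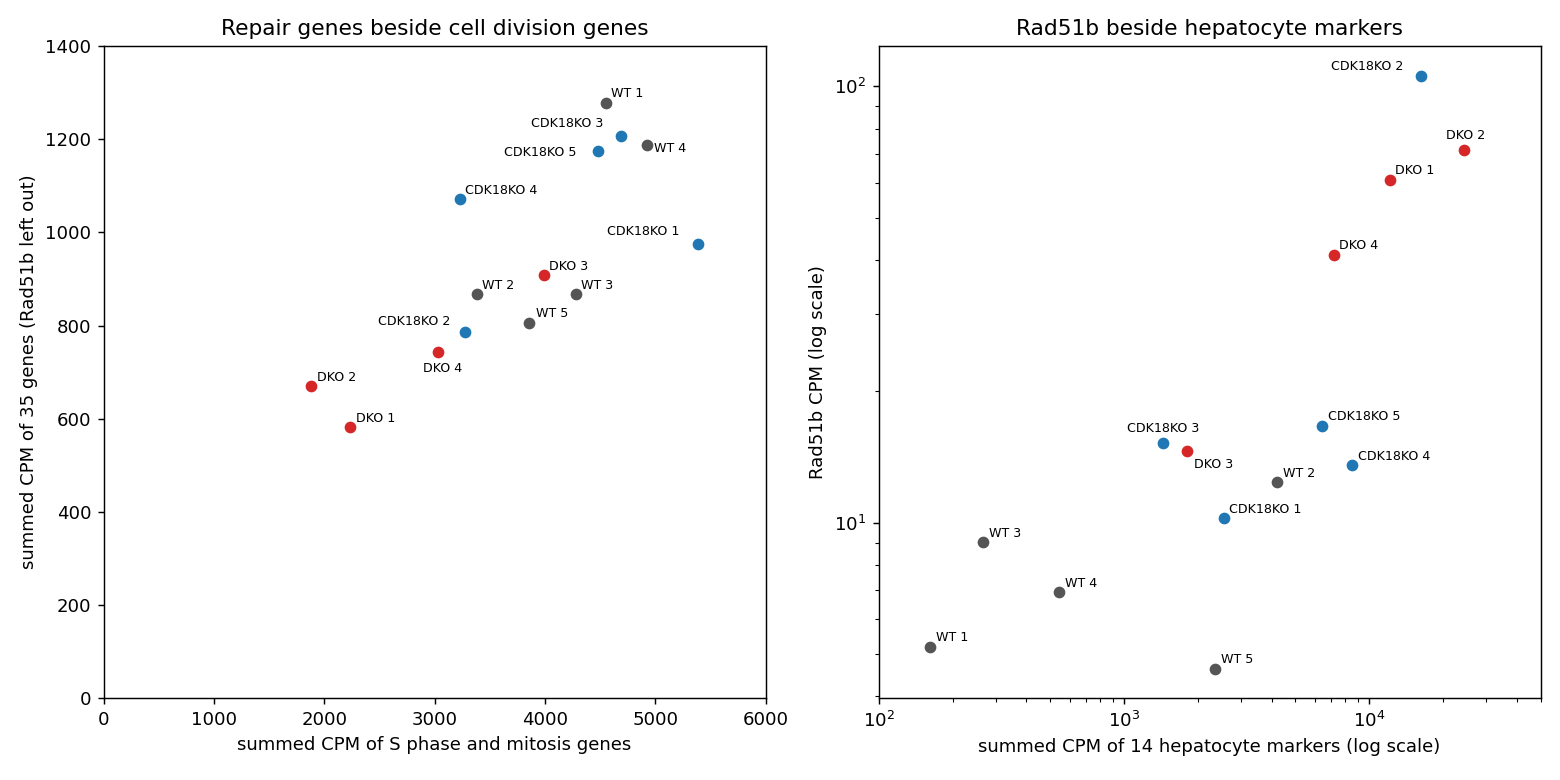
Left, summed CPM of the 35 repair genes without Rad51b against summed CPM of 37 S phase and mitosis genes, and right, Rad51b CPM against the summed CPM of 14 hepatocyte markers on log axes, with 1 labelled point per library (grey WT, blue CDK18KO, red DKO). DKO 1 and DKO 2 lie lowest on both axes at left, and CDK18KO 2, DKO 1, DKO 2 and DKO 4 lie highest in Rad51b at right.

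Markers of other cells differed between the same groups. All 14 hepatocyte markers were higher in DKO than in WT (median 3.31) and 12 of 14 in CDK18KO than in WT (median 2.47). All 5 tested neutrophil markers were higher in DKO, at 368 to 545 summed CPM against 40.8 to 272 in WT and 5.28 to 93.1 in CDK18KO. Erythroid markers summed to 1738 to 10185 CPM in DKO, 561 to 2670 in WT and 537 to 1929 in CDK18KO. Fibroblast markers summed to 45.6 to 891 CPM in CDK18KO against 445 to 1301 in WT and 459 to 1195 in DKO, and all 9 were lower in CDK18KO than in WT. Cholangiocyte markers, 7 genes, summed to 34.0 to 302 CPM in CDK18KO, 163 to 411 in WT and 148 to 558 in DKO. B and plasma cell markers summed to 33.3 to 127 CPM in DKO and at most 9.26 elsewhere, macrophage markers to 70.2 to 584 in DKO and 53.2 to 131 elsewhere, and endothelial markers to 20.1 to 152 over all libraries. The T and NK cell markers were at 7.43 CPM or less in sum, and 0 of 7 were counted enough to be tested. The part of this mix of cells in the levels of the 36 genes was not tested.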

How the data were processed

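The deposited table holds raw counts per gene symbol. Per the labels' protocols, 300 ng of RNA entered an oligo(dT) 3′ kit with strand kept and a random tag of 6 bases on each molecule, read as single reads of 151 bases. Among the tools in the submitters' processing notes are STAR 2.7.11a, HTSeq 1.99.2, UMI-tools 1.1.2, DESeq2 1.32.0 and FastQC, and mm10 and GRCh38 are both listed as builds without a role. The annotation, the strand setting, and whether reads with 1 tag were collapsed are not stated there, so counts are treated as reads and errors cover no PCR duplication.

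The 36 genes and the lists were chosen with earlier results of these data known. Of the 14 libraries, each labelled a biological replicate, all entered 1 edgeR 4.0.16 fit (R 4.3.3) with TMM factors and the low-count filter by group. The two-sided quasi-likelihood F test was adjusted by Benjamini-Hochberg over the 13997 genes kept, which held 99.0% of counts. SE is the log2 fold change divided by the square root of F, CPM carries the TMM factors, and the common coefficient of biological variation was 0.598. Named with all values are the 6 members of smallest p in each comparison and up to 3 of opposite sign to the median; from other lists, up to 3 of smallest p; other members with values were named beyond that rule, and 1 listed gene is not reported here. DESeq2 1.42.0, limma 3.58.1 (voom), other scalings, filters, fits and left-out libraries were alternatives. Positions and exon overlaps come from GENCODE M21 (GRCm38), start-site sequences from RefSeq. The pipeline was tested on simulated data. Every simulated gene had the same spread and no difference in cell mix was simulated, so that run does not show how the tests perform on these tumours. Columns of single-sample values not used numbered 0.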

Additional observations from a re-analysis of the deposited data

Results flagged for a closer look

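In 9 of 108 combinations of gene and group, 1 library stood apart from its group by Dixon's ratio of gap to range. Chance gives about 1 in 20 for independent values with a normal spread. Here the values were CPM on a linear scale and the genes shared libraries, so the count is not read as an excess over chance. CDK18KO 2 held 2 of them: Rad51b at 106 CPM, with the next CDK18KO library at 16.7 CPM, and Brca1 at 10.1 CPM, with the next at 28.6 CPM. DKO 3 held 2 as the highest DKO library, Exo1 at 41.1 CPM (next 18.3) and Eme1 at 7.12 CPM (next 3.94). CDK18KO 4 was high in Rad51d at 29.4 CPM (next 13.8) and in Rmi1 at 15.5 CPM (next 8.70). CDK18KO 5 was high in Dna2 at 169 CPM (next 60.9) and in Fanci at 9.27 CPM (next 3.73). WT 1 was high in Rad51ap1 at 66.7 CPM (next 38.4). Values are CPM in the library, and the next value is that of the nearest library of the same group.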

How the results depend on the processing

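Over the alternatives, 221 of 225 values of the members' counts called, counts lower and medians stayed near the reported value. For counts this meant within a set ratio of the reported count. For medians it meant within the replicate spread of 0.29, so a median could change sign and still be included. Of the values of the named members, 569 of 574 kept their sign and their side of the threshold. These members were picked by small p in the same data, and none passed the reported edgeR threshold. Some alternatives also left out only a library of the group not compared. The number kept was thus largely set by the choice. None of the 574 values of the named members changed sign, while the members' median in CDK18KO against WT, -0.08 as reported, became 0.08 without CDK18KO 2 and 0.02 without WT 3. DESeq2 called 2 members in CDK18KO against WT (Rad51b and Brip1) and 1 in DKO against WT (Rad51b), where edgeR called 0. Rad51b in DKO against WT was also called, as the 1 member, without a filter on low counts (adjusted p = 0.0491) and with the replicate number as a block (1 member, adjusted p = 0.0433). Over all genes the block called 297, 438 and 0 in the 3 comparisons, against 1, 1 and 0, and no filter called 173, 252 and 42; the cause was not tested. Same-numbered libraries deviated with correlations of -0.23 to 0.30, -0.21 to 0.45 and -0.16 to 0.65. Not every library correlated best with its own number. With so few libraries these values do not settle whether the numbers pair the samples, and the reported fit left the numbers out.

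With 1 library left out, 0 members were called in every comparison. The median ran from -0.18 (without WT 5) to 0.08 in CDK18KO against WT, from -0.66 (without DKO 3) to -0.35 (without DKO 2) in DKO against WT, and from -0.60 (without DKO 3) to -0.33 (without CDK18KO 3) in DKO against CDK18KO. Members lower numbered 15 to 22, 27 to 31 and 27 to 32. Upper-quartile factors and library totals moved the median of all genes to -0.13 and -0.15 in CDK18KO against WT and to -0.16 and -0.19 in DKO against WT, where 32 members were lower under both and the members' medians were -0.60 and -0.64. A stricter filter tested 30 members. Depth limits most the least counted members, Fancg with 154 and Mus81 with 174 counts over all libraries.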
